A study of Canis lupus familiaris with 8 samples.

Results

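Described here are 8 genes, ADGRE3, CCR1, SAMD14, KLK11, MMP9, ZNF683, ALDH1A1 and CALY, out of 20257 genes listed for TCRαβ+ T cells from canine blood. They were chosen by their measured unique molecular identifier (UMI) counts in CD4 single-positive (CD4 sp) cells with and without a UMI of KLRK1, set beside the same split in CD8A single-positive (CD8A sp) cells. Those values are therefore given as a description, without a test. KLRK1 encodes NKG2D, an activating receptor of killer lymphocytes. The cells were sorted by flow cytometry with an antibody to TCRαβ from 4 healthy experimental Beagles (dog 1, female, 5 years; dogs 2 and 3, male, 7 years; dog 4, male, 9 years). No dog was treated, so the only groups were sets of cells within each dog. The sorted cells had been frozen, were thawed together and gave 1 gene expression library (5′ chemistry) and 1 T cell receptor library per dog.

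CD4 T cells with a cytotoxic program carry killer receptors, granzymes and perforin that are better known from CD8 T cells and NK cells, and they are usually found in clonally expanded, antigen-experienced populations. The 8 genes have separate roles. ADGRE3 is an adhesion G protein-coupled receptor and CCR1 a receptor of inflammatory chemokines, both best known from myeloid cells. MMP9 (gelatinase B) is a secreted matrix protease and KLK11 a secreted serine protease of the kallikrein family. ALDH1A1 oxidises retinaldehyde to retinoic acid, and ZNF683 encodes Hobit, a transcription factor of effector and tissue-resident lymphocytes. SAMD14 is a sterile alpha motif protein, and CALY encodes calcyon, a vesicle protein best known from neurons.

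After removal of low-quality cells, 31909 cells were kept (7096 to 8454 per dog), with a median of 3599 to 3932 UMIs per cell and a receptor sequence in 80.3% to 83.4% of the cells. Pairs of libraries shared 87 to 120 cell barcodes, at most 1.43% of either library. A cell was called CD4 sp with a CD4 but no CD8A UMI, CD8A sp with the reverse, dp with both and dn with neither, so a dn cell may have held either transcript undetected. KLRK1 was detected in 26 of 3658 CD4 sp cells of dog 1 (0.711%, exact binomial 95% interval 0.465 to 1.04%), in 401 of 3629 in dog 2 (11.0%, 10.0 to 12.1%), in 390 of 2716 in dog 3 (14.4%, 13.1 to 15.7%) and in 348 of 3244 in dog 4 (10.7%, 9.68 to 11.8%). Dog 1 thus contributed few KLRK1-positive CD4 sp cells, and 1 UMI there was worth 7.76 CPM (UMIs of a gene per 1000000 UMIs of the summed cells), against 0.462 to 0.572 CPM in the other dogs. Intervals and detection limits cover counting error only.

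The label of a cytotoxic CD4 population was checked against marker genes. Of 16 cytotoxic effector genes, 13 were named in the gene list, and their summed level was 1460 to 2234 CPM in KLRK1-positive and 703 to 1173 CPM in KLRK1-negative CD4 sp cells of the 4 dogs. GZMK had a mean of 315 ± 98.5 CPM (SD, n = 4 dogs) with KLRK1 and 67.9 ± 35.7 CPM without it. GZMB was at 18.6 ± 9.48 against 6.56 ± 2.93 CPM, and PRF1 (perforin) at 23.3 ± 15.7 against 9.84 ± 6.90 CPM with no UMI in dog 1. GZMA was at 1.55 ± 1.53 CPM with and 0.505 ± 0.455 CPM without KLRK1, and GZMM, GZMH and NKG7 were not analysed here. The sum also held SRGN (546 ± 58.8 against 484 ± 97.1 CPM), LAMP1 (233 ± 10.4 against 228 ± 14.5 CPM) and CTSW (14.9 ± 2.75 against 15.4 ± 6.65 CPM). GZMK was detected in 7.69, 23.4, 37.7 and 27.0% of KLRK1-positive CD4 sp cells of dogs 1 to 4, so most of them had no GZMK UMI. The T cell marker CD3E was at similar levels on both sides, 1302 ± 103 and 1279 ± 83.9 CPM. CD4, a gene of the gate, was lower with KLRK1, at 400 ± 3.90 (396 to 405) against 549 ± 18.8 CPM (530 to 574). CD2 was at 363 ± 59.4 against 291 ± 65.8 CPM. The cause of the lower CD4 was not tested.

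Because ADGRE3, CCR1 and MMP9 are known from myeloid cells and canine neutrophils carry CD4, myeloid markers were read in the same cells. Of 9 monocyte markers in the gene list, 7 had no UMI in KLRK1-positive CD4 sp cells (among them CSF1R, VCAN, SPI1, AIF1, CYBB and CD163), and the list summed to 0 to 0.925 CPM with and 0.592 to 1.63 CPM without KLRK1. Of 7 neutrophil markers, CSF3R, S100A12, CXCR2, MMP8, CAMP and LTF were at 0, and S100A8 alone was at 2637 to 3321 CPM with and 1198 to 2858 CPM without KLRK1. A myeloid marker other than S100A8 was present in 0.343% of KLRK1-positive and 0.397% of KLRK1-negative CD4 sp cells. It was present in 1 of 77 cells with ADGRE3, 2 of 152 with CCR1 and 1 of 147 with MMP9. These shares were 1.30, 1.32 and 0.680%, against 0.387, 0.382 and 0.389% of the cells without each gene. With every cell holding any myeloid marker UMI removed, S100A8 included, 45 of 1165 KLRK1-positive CD4 sp cells remained and the mean log2 ratio of KLRK1-positive to KLRK1-negative cells was -0.30 ± 0.60 for MMP9, -0.88 ± 1.10 for SAMD14, -1.21 ± 0.75 for ALDH1A1, -2.65 ± 2.01 for CALY and 0.81 ± 2.24 for CCR1 (SD, n = 4). With S100A8 disregarded it was 2.16 ± 0.96, 1.94 ± 0.65, 0.56 ± 0.83, 0.57 ± 0.59 and 2.45 ± 1.07. With 45 KLRK1-positive cells left over the 4 dogs, the ratios after removal of all such cells rested on few UMIs. The 1 CPM added before each ratio then weighs heavily, so their signs cannot be read. The part of S100A8 in these ratios was not tested. A receptor sequence was found in 83.1% of the cells with ADGRE3, 88.8% with CCR1 and 91.2% with MMP9, against 85.6%, 85.5% and 85.5% of CD4 sp cells without each. Erythroid markers were at 0, platelet markers summed to at most 1.72 CPM, and of the B cell markers PAX5, CD22 and EBF1 were at 0 in KLRK1-positive CD4 sp cells while CD79A was at 8897 to 10490 CPM. Dendritic cell markers other than CCR7 summed to 7.76 to 21.2 CPM, nearly all of it ZBTB46, with FLT3 and CD1C at 0.

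The values that chose the genes follow, by role. The share of all genes without overlap in this split was not counted, so a lack of overlap is description only. CCR1 was at 31.0, 11.1, 12.7 and 12.01 CPM in KLRK1-positive and at 0.992, 2.39, 2.39 and 2.37 CPM in KLRK1-negative CD4 sp cells of dogs 1 to 4. Every dog was higher with KLRK1 and the groups did not overlap, although the value of dog 1 rested on 4 UMIs. In CD8A sp cells CCR1 was at 3.83, 10.3, 7.91 and 2.96 CPM with and 9.52, 2.22, 5.62 and 4.02 CPM without KLRK1, and the direction differed between dogs. ADGRE3 was at 0, 5.55, 14.6 and 0.572 CPM with KLRK1 and at 0.425, 0.898, 1.96 and 0.931 CPM without it in CD4 sp cells. Only dogs 2 and 3 were higher with KLRK1, and the 0 of dog 1 allowed up to 23.3 CPM. In CD8A sp cells ADGRE3 was higher with KLRK1 in all 4 dogs, by a mean of 0.61 ± 0.32 (SD) on the log2(CPM + 1) scale.

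MMP9 was at 7.76, 13.9, 31.1 and 6.86 CPM with and 0.567, 2.54, 2.498 and 3.30 CPM without KLRK1 in CD4 sp cells of dogs 1 to 4. All 4 dogs were higher with KLRK1 without overlap, and dog 1 held a single UMI. In CD8A sp cells MMP9 was at 0.988 to 8.24 CPM with and 0.444 to 9.13 CPM without KLRK1. KLK11 was at 0, 17.6, 38.2 and 4.58 CPM with and 4.04, 8.23, 15.4 and 13.0 CPM without KLRK1. It was higher with KLRK1 in dogs 2 and 3 and lower in dog 4, and the 0 of dog 1 allowed up to 23.3 CPM. The mean log2 ratio of KLK11 was -0.35 ± 1.76 (SD, n = 4) and turned to 0.31 ± 1.43 without dog 1.

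ALDH1A1 was at 0, 5.09, 17.0 and 5.15 CPM with and 0.496, 3.59, 5.65 and 2.29 CPM without KLRK1 in CD4 sp cells. Dogs 2 to 4 were higher with KLRK1, and the ranges overlapped. ZNF683 was at 116, 76.8, 154 and 65.2 CPM with and 21.1, 33.5, 59.0 and 49.9 CPM without KLRK1, higher in every dog with no overlap. In CD8A sp cells ZNF683 was at 89.9, 93.3, 79.1 and 52.5 CPM with and 42.8, 54.7, 58.7 and 56.6 CPM without KLRK1. SAMD14 was at 7.76, 13.0, 23.1 and 13.2 CPM with and 0.354, 3.07, 4.35 and 5.42 CPM without KLRK1 in CD4 sp cells, again without overlap, with 1 UMI in dog 1. In CD8A sp cells it did not exceed 5.55 CPM in any dog. CALY was at 15.5, 91.1, 87.7 and 10.9 CPM with and 5.17, 66.1, 72.5 and 9.90 CPM without KLRK1. Its levels separated dogs 2 and 3 from dogs 1 and 4 more widely than KLRK1 did, and in CD8A sp cells it was lower with KLRK1 in all 4 dogs (mean log2 ratio -1.06 ± 0.70).

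**Figure D1:**
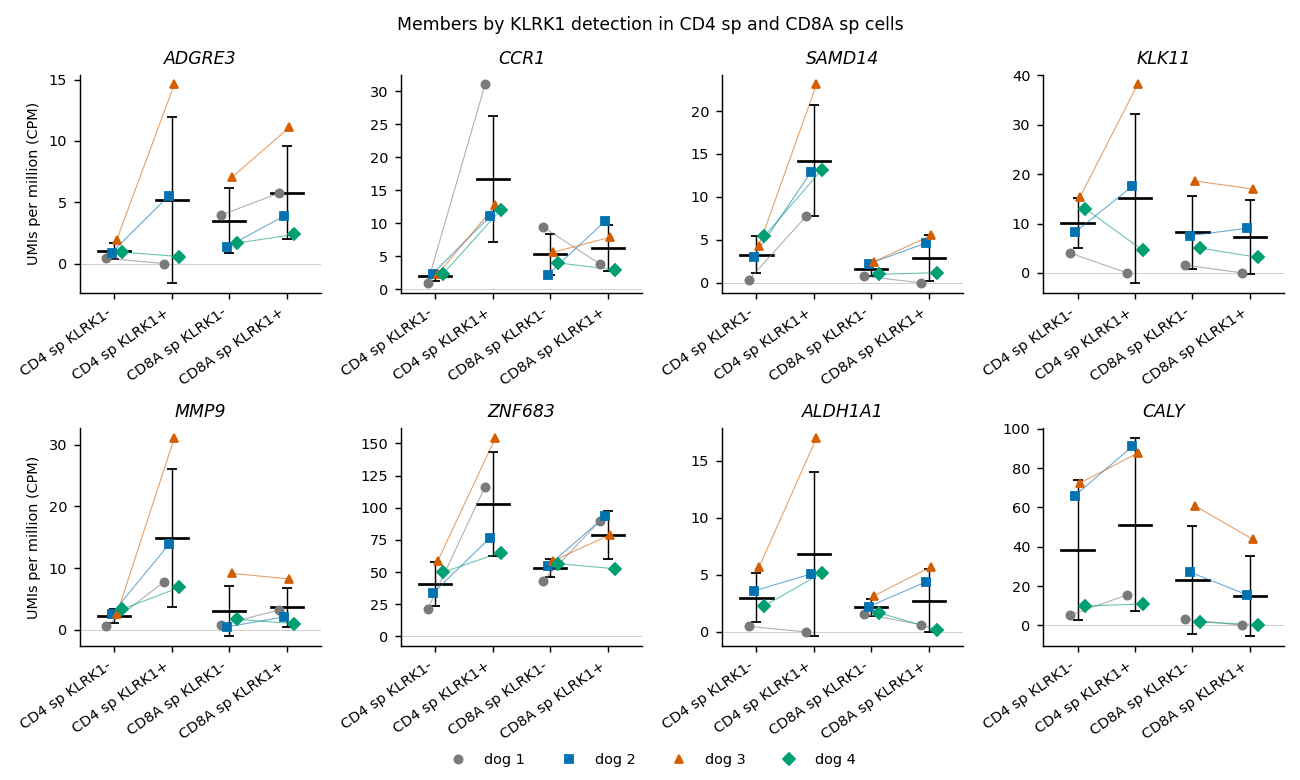
CPM (vertical axes, 1 panel per gene) in CD4 sp and CD8A sp cells without and with a KLRK1 UMI. Each symbol is 1 dog, thin lines join the same dog, and black bars give the mean ± SD of 4 dogs. CCR1, SAMD14, MMP9 and ZNF683 did not overlap between the CD4 sp groups, while ADGRE3 and KLK11 were higher with KLRK1 in dogs 2 and 3 only. The genes were chosen on these values, and the share of all genes without overlap was not counted.

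Among CD4 sp cells with more KLRK1 UMIs the measured levels of some genes were higher again, on few UMIs and without a test. Over 0, 1 and 2 or more KLRK1 UMIs, CCR1 went from 2.39 to 7.83 and 14.8 CPM in dog 2, from 2.39 to 7.72 and 16.5 CPM in dog 3, and from 2.37 to 9.31 and 14.6 CPM in dog 4. SAMD14 went from 3.07 to 8.70 and 17.8 CPM in dog 2, from 4.35 to 19.8 and 25.5 CPM in dog 3, and from 5.42 to 11.6 and 14.6 CPM in dog 4. ALDH1A1 went in the same order in dogs 2 to 4, from 3.59 to 4.35 and 5.92, from 5.65 to 12.1 and 20.6, and from 2.29 to 2.33 and 7.88 CPM. In dog 1 the values rested on 26 cells with KLRK1, where CCR1 had the same order and SAMD14 was at 0.354, 0 and 24.5 CPM. MMP9 was at 34.2 CPM with 1 and 28.8 CPM with 2 or more KLRK1 UMIs in dog 3, and CALY at 94.0 and 87.8 CPM in dog 2, so neither kept that order in every dog. KLK11 kept it in dog 2 only (13.0, 3.49 and 5.63 CPM in dog 4), ADGRE3 in dogs 2 and 3 and ZNF683 in dogs 1 to 3. ALDH1A1 of dog 1 was at 0.496, 0 and 0 CPM. The step from 0 to any KLRK1 UMI is the contrast that chose the genes. From 1 to 2 or more KLRK1 UMIs, CCR1 counts were 9 and 15, 7 and 20, and 8 and 13 UMIs in dogs 2 to 4. Those of SAMD14 were 10 and 18, 18 and 31, and 10 and 13, and those of ALDH1A1 5 and 6, 11 and 25, and 2 and 7. That step was not tested against counting error, so the order is description only.

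KLRK1-positive CD4 sp cells were deeper, with a median of 5055 UMIs against 3870. CCR1 was detected in a mean of 6.25 ± 1.21% (SD, n = 4) of the cells with and 0.725 ± 0.265% of those without KLRK1. When 2000 UMIs were drawn at random from each cell, leaving aside 39 and 1426 cells with fewer, the shares were 2.32 ± 1.05% and 0.362 ± 0.103%. In KLRK1-negative CD4 sp cells with CCR7, a receptor of naive and central memory cells (median 3924 UMIs), the thinned share of CCR1 was 0.0637 ± 0.0902%. ZNF683 was detected in 29.4 ± 12.01% and 11.3 ± 3.81% of the cells before thinning and in 13.6 ± 7.08% and 6.38 ± 2.56% after it, with 3.99 ± 1.44% in the CCR7-positive cells. For MMP9 the thinned shares were 1.67 ± 1.52%, 0.336 ± 0.218% and 0.255 ± 0.309%, and dog 1 had no KLRK1-positive cell with MMP9 left. The mean log2 ratio of CALY, 0.57 ± 0.58 over all CD4 sp cells, was -0.51 ± 1.54 after thinning and -0.51 ± 1.43 with at least 2 KLRK1 UMIs. In both settings the KLRK1-positive cells of dog 1 held no CALY UMI, in the latter among 8 cells. With at least 2 KLRK1 UMIs dogs 2 to 4 were at 87.8, 89.7 and 9.00 CPM, against 66.05, 72.45 and 9.90 CPM without KLRK1. After thinning their shares were 13.2, 13.4 and 2.65% with and 11.2, 13.3 and 2.105% without KLRK1. The thinned share of CALY was 7.31 ± 6.99% with and 6.94 ± 6.21% without KLRK1, and 7.02 ± 6.31% in the CCR7-positive cells.

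At least 3 of the 8 genes were detected together in 0 of 26 KLRK1-positive CD4 sp cells of dog 1, in 4.74% of 401 in dog 2, in 17.2% of 390 in dog 3 and in 0.575% of 348 in dog 4. Among KLRK1-negative CD4 sp cells the shares were 0.0275%, 0.929%, 1.38% and 0.311%. Dog 3 held the most such cells, up to 6 of the 8 genes in 1 cell, and dog 4 was close on both sides of the split. Among CD4 sp cells with a receptor sequence, more than 1 β chain was found in 1.26% (ALDH1A1) to 7.83% (KLK11) of those with a gene of the 8. Without each gene it was 3.14 to 3.48%. The part of doublets was not tested.

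The 8 genes were then followed through 16 sets of cells that did not share a cell. CD4 sp cells with KLRK1 were split by GZMK, and those without KLRK1 were assigned in turn by GZMK, FOXP3 (regulatory T cells), GATA3 (Th2 cells), CXCR3 (Th1 cells) and CCR7. CD8A sp cells were split by KLRK1, FCER1G and CCR7, and dn cells by KLRK1. CCR1 was highest in CD4 sp KLRK1+ GZMK+ cells (22.6 ± 8.52 CPM, SD of 3 dogs with at least 20 such cells), followed by dn KLRK1+ (15.8 ± 14.0 CPM, 4 dogs) and CD4 sp KLRK1+ GZMK- cells (14.6 ± 13.0 CPM). The last value rested on 4 UMIs of dog 1, without which its mean was 8.30 CPM, under that of CD8A sp cells with KLRK1 and without FCER1G (8.47 CPM). Without dog 1, as in the leading set, dn KLRK1+ cells were at 19.4 CPM for CCR1. Without dog 4 dn KLRK1+ cells led for CCR1 (19.04 CPM over 3 dogs against 18.7 CPM over 2). SAMD14 had the same leading sets, at 21.8 ± 7.42 (3 dogs, without dog 1), 13.3 ± 11.8 and 11.3 ± 11.3 CPM (4 dogs). Without dog 1 the last of these sets were at 17.8 (dn KLRK1+) and 15.1 CPM (CD4 sp KLRK1+ GZMK-). SAMD14 had no UMI in either set of FCER1G-positive CD8A sp cells. ADGRE3 was highest in dn KLRK1+ (11.3 ± 14.2 CPM) and CD4 sp KLRK1+ GZMK+ cells (10.8 ± 7.97 CPM), and CD8A sp cells with FCER1G and without KLRK1 followed (8.14 ± 7.19 CPM). Dog 1 gave 3 of the 9 UMIs behind that place, and without dog 1 the mean was 4.66 CPM, below 6.28 CPM in CD8A sp cells with both KLRK1 and FCER1G. Without dog 3 the mean of ADGRE3 in dn KLRK1+ cells was 5.03 CPM. Without dog 3 or 4 CD4 sp KLRK1+ GZMK+ cells led, but over 2 dogs, while the dn mean included dog 1 at 0 CPM. In dogs 2, 3 and 4 ADGRE3 was at 14.3, 30.2 and 0.765 CPM in dn KLRK1+ cells. In their CD4 sp KLRK1+ GZMK+ cells it was at 17.9, 12.3 and 2.17 CPM.

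MMP9 had another order, led by CD4 sp KLRK1+ GZMK- cells at 18.6 ± 14.2 CPM, before dn KLRK1+ (10.9 ± 9.10 CPM) and CD4 sp KLRK1+ GZMK+ cells (6.80 ± 10.1 CPM), where 15 of the 16 UMIs came from dog 3. The first and second place of MMP9 were the same without any 1 dog. The third did not hold on the same dogs: without dog 1 dp cells were at 7.49 CPM, above the 6.80 CPM of CD4 sp KLRK1+ GZMK+ cells. ZNF683 was highest in CD4 sp KLRK1+ GZMK- (108 ± 41.3 CPM) and dn KLRK1+ cells (104 ± 47.8 CPM), and lowest in CCR7-positive CD4 sp cells (17.1 ± 5.65 CPM). KLK11 and ALDH1A1 were both highest in dn KLRK1+ cells, at 26.0 ± 27.0 and 10.2 ± 10.5 CPM. Without dog 2 or 3 another set led for KLK11 (dp cells at 23.5 CPM or dn KLRK1- cells at 17.02 CPM), and without dog 1 dn KLRK1+ cells led for ZNF683. Without dog 2 CD4 sp KLRK1+ GZMK+ cells led for ALDH1A1 (9.25 CPM over 2 dogs), before dn KLRK1+ cells (8.56 CPM over 3 dogs, dog 1 at 0). In dogs 3 and 4 ALDH1A1 was at 9.82 and 8.68 CPM in CD4 sp KLRK1+ GZMK+ cells. In their dn KLRK1+ cells it was at 22.6 and 3.06 CPM. CALY ran from 58.0 ± 49.7 CPM in CD4 sp KLRK1+ GZMK- cells to 7.26 ± 9.22 CPM in CD8A sp cells with KLRK1 and FCER1G. Neighbouring sets in these orders differed by less than the larger of their SDs everywhere except for ADGRE3 between GATA3-positive and FOXP3-positive CD4 sp cells (1.20 and 0.267 CPM) and SAMD14 between CCR7-positive CD4 sp cells and CD8A sp cells with KLRK1 and FCER1G (0.874 and 0 CPM).

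**Figure D2:**
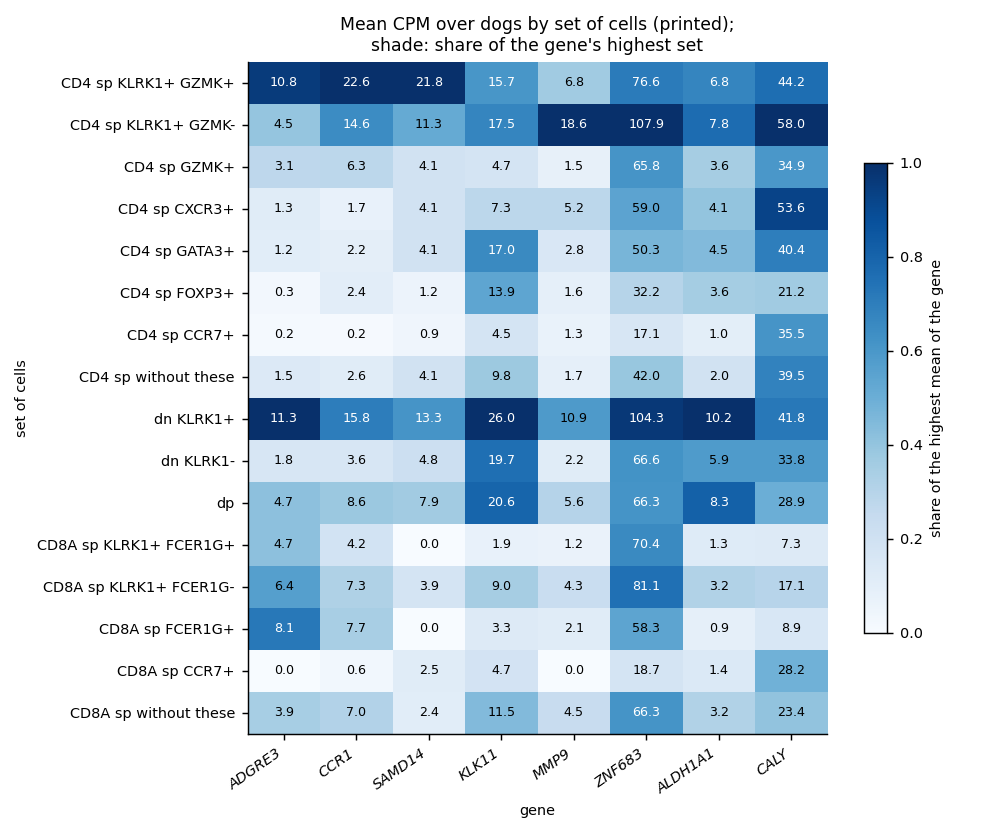
Mean CPM over dogs (printed in each field) of the 8 genes (columns) in 16 disjoint sets of cells (rows); the shade gives the value as a share of that gene's highest set. The darkest fields lie in the KLRK1-positive CD4 sp and dn sets, with MMP9 at 18.6 CPM in KLRK1+ GZMK- and 6.8 CPM in KLRK1+ GZMK+ CD4 sp cells. The means of KLRK1+ GZMK+ CD4 sp cells leave out dog 1, which had 2 such cells.

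The genes whose levels most resembled each of the 8 were sought over 63 sums of 1 set in 1 dog, among 8278 genes, by the Pearson correlation of log2(CPM + 10). Sums of 1 dog share a library, and the values are a description. ALDH1A1 was most like KLK11 (r = 0.81), SAMD14 (0.80) and TSPO (0.73), and KLK11 was most like TSPO (0.77), PDLIM1 (0.75) and OSBPL7 (0.73). SAMD14 was nearest to NET1 (0.73), C9H17orf64 (0.71) and JUP (0.70), and MMP9 to C9H17orf64 (0.69), JUP (0.64) and KLK11 (0.63). VSTM1 was among the 3 nearest genes of ADGRE3 (0.63, after ANOS1 at 0.69 and ANKS4B at 0.65), CCR1 (0.59, with PLAAT4 at 0.60 and PFKP at 0.59) and ZNF683 (0.71, with SPTY2D1 at 0.73 and IL18R1 at 0.71). CALY was nearest to ENSCAFG00000048887 (0.83), ENSCAFG00000002706 (0.78) and TAGAP (0.78). The correlation with KLRK1 itself ran from 0.55 for CCR1 to 0.10 for KLK11 and -0.02 for CALY. Since the CD4 sp, CD8A sp and dn sums were split by KLRK1 and included the cells that chose the genes, it is not independent of that choice.

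Within CD4 sp cells the genes also differed in what they were detected with. The chemokine receptor CCR9, known for homing to the gut, was detected in 59.2% of the 147 cells with MMP9 and in 14.8% of those without. By dog the shares were 44.4, 57.1, 64.8 and 57.1% with MMP9 and 1.95, 20.2, 11.95 and 25.9% without it, higher in each dog. Cells with MMP9 were deeper (median 5116 against 3944 UMIs), and after thinning the shares were 45.8% of 59 cells and 9.09%. CCR9 was also found in 37.5% of the cells with CCR1 against 15.1%, higher in 4 of 4 dogs, and after thinning in 13.8% of 58 cells against 9.25%. In cells with ALDH1A1 it was found in 44.4% against 14.9% (22.03% of 59 cells against 9.20% after thinning), higher in 4 of 4 dogs, and in cells with SAMD14 in 42.4% against 14.8% (19.6% of 92 cells against 9.19%), higher in 3 of 4. With ZNF683 CCR9 was found in 32.1% against 12.9% (17.1% of 819 cells against 8.68% after thinning), higher in 4 of 4 dogs. With CALY it was found in 31.0% against 13.4% (16.9% of 791 cells against 8.72%), also higher in 4 of 4. For ADGRE3 and KLK11 it was higher in 2 of 4.

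GZMK was found in 32.2% of the 152 cells with CCR1 against 7.77% of those without, higher in 4 of 4 dogs. Cells with CCR1 were deeper (median 5296 against 3946 UMIs), and after thinning the shares were 17.2% of 58 cells and 5.88%. In cells with MMP9 GZMK was found in 10.9% against 8.02%, higher in 2 of 4 dogs, and after thinning in 8.47% of 59 cells against 5.92%. In cells with KLK11, also deeper (5009 against 3926 UMIs), it was found in 8.39% against 8.04% before and in 1.51% of 199 cells against 6.01% after thinning. KLRK1 was found in 14.3, 46, 55.3 and 41.5% of the cells with CCR1 of dogs 1 to 4, higher than without CCR1 in every dog. With MMP9 the shares were 11.1, 42.9, 68.5 and 23.8%, also higher in every dog. With ADGRE3 they were 0, 47.4, 57.5 and 8.33%, higher than without it in dogs 2 and 3 only. These shares of KLRK1 belong to the contrast that chose the genes. CCR9 itself was detected in 15.4, 51.1, 42.05 and 49.7% of KLRK1-positive CD4 sp cells of dogs 1 to 4. Without KLRK1 it was in 1.955, 16.85, 8.13 and 23.5%. GZMK was in 7.69, 23.4, 37.7 and 27.0% with and 2.51, 5.67, 8.30 and 9.05% without KLRK1. The shares of CCR9 and GZMK are therefore not independent of the choice, and the part of KLRK1 in them was not tested.

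**Figure D3:**
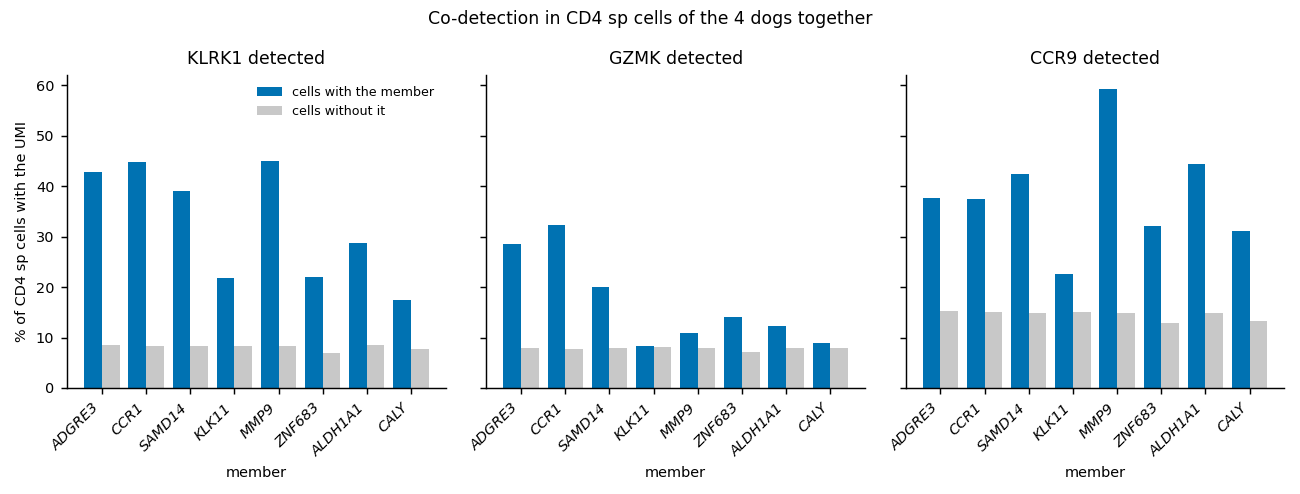
Share of CD4 sp cells (vertical axis, %, all 4 dogs together, without thinning) with a UMI of KLRK1, GZMK or CCR9 (panels), for cells with (blue) and without (grey) a UMI of each of the 8 genes (horizontal axis). CCR9 reached 59.2% in cells with MMP9 and GZMK 32.2% in cells with CCR1, and after thinning these were 45.8% and 17.2%.

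The first comparison made the same KLRK1 split in dn cells, which the choice of genes did not use. It set 52, 565, 650 and 303 KLRK1-positive against 2606, 2622, 2211 and 2501 KLRK1-negative cells of dogs 1 to 4. These cells came from the same libraries as the CD4 sp and CD8A sp cells, and some shared a clone with them. A dn cell may also have held CD4 or CD8A undetected, so this comparison is not independent of the choice. CCR1, MMP9 and ADGRE3 were higher in KLRK1-positive dn cells by edgeR's quasi-likelihood test on UMIs summed per dog, and no gene of the 8 was lower. That is 3 of 8, where 1.01% of 10840 genes tested were called higher at a Benjamini-Hochberg adjusted p under 0.05. The median log2 fold change was 1.60 over the 8 genes and -0.02 over all genes tested.

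CCR1 was at 4.99, 35.1, 17.0 and 6.12 CPM in KLRK1-positive and 2.91, 3.55, 4.92 and 3.06 CPM in KLRK1-negative dn cells. It was higher in every dog, as were 10.7% of all genes tested, and the groups did not overlap, as for 3.57% of them, though dog 1 rested on 1 UMI. The log2 fold change was 2.46 ± 0.44 (SE, edgeR adjusted p = 0.0170). MMP9 was at 0, 10.7, 22.3 and 10.7 CPM with and 0.931, 1.61, 3.19 and 2.94 CPM without KLRK1. Dogs 2 to 4 were higher with KLRK1 and dog 1 was not, so the groups overlapped, though the 0 of dog 1 allowed up to 15.0 CPM. Its log2 fold change was 2.72 ± 0.46 (SE, edgeR adjusted p = 0.0141). ADGRE3 was at 0, 14.3, 30.2 and 0.765 CPM with and 0.931, 2.04, 3.46 and 0.941 CPM without KLRK1. The difference lay in dogs 2 and 3, and the log2 fold change was 3.1 ± 0.69 (SE, edgeR adjusted p = 0.0418). By DESeq2 the call of ADGRE3 was lost (2.77 ± 1.13, adjusted p = 0.199), while those of CCR1 (0.000503) and MMP9 (0.000168) passed.

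SAMD14 was at 0, 22.2, 24.3 and 6.89 CPM with and 1.28, 5.27, 5.98 and 6.47 CPM without KLRK1 in dn cells, and its log2 fold change of 1.93 ± 0.50 missed the threshold (edgeR adjusted p = 0.0656). ZNF683 was at 69.8, 130, 158 and 58.9 CPM against 51.1, 48.3, 98.3 and 68.9 CPM (0.81 ± 0.31, edgeR adjusted p = 0.192). KLK11 had a log2 fold change of 0.89 ± 0.48, ALDH1A1 of 1.27 ± 0.59 and CALY of 0.76 ± 0.81, none past the threshold (edgeR adjusted p = 0.381, 0.292 and 0.707). With the dog as a block, 4.34% of all genes were called higher, and 7 of the 8 genes passed, all but KLK11 (edgeR adjusted p = 0.154). In that paired fit SAMD14 was at 1.68 ± 0.28 (edgeR adjusted p = 0.000624), ZNF683 at 0.75 ± 0.17 (0.00860), ALDH1A1 at 0.95 ± 0.25 (0.0174) and CALY at 0.40 ± 0.12 (0.0358). ALDH1A1 was at 0, 15.0, 22.6 and 3.06 CPM with and 1.98, 6.35, 11.7 and 3.76 CPM without KLRK1, higher in dogs 2 and 3 only. CALY was at 0, 76.6, 79.6 and 10.7 against 3.84, 53.25, 71.1 and 6.94 CPM, higher in dogs 2 to 4. Their mean log2 ratios over the 4 dogs were 0.05 ± 1.24 and -0.26 ± 1.36 (SD).

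The calls of the fit without the block depended on dogs 2 and 3. The fit with the dog as a block was not repeated without a dog. Without dog 2 none of the 8 genes passed, with edgeR adjusted p = 0.118 for MMP9, 0.195 for CCR1 and 0.224 for ADGRE3 and 4 genes at an unadjusted p under 0.05, and without dog 3 none passed either (0.137, 0.108 and 0.250; 5 genes unadjusted). Of all genes tested, 10.6% were at an unadjusted p under 0.05 without dog 2 and 12.3% without dog 3. Without dog 1 ADGRE3 missed the threshold (0.0810) and SAMD14 passed it (0.0463), and without dog 4 SAMD14 also passed (0.0365). The log2 fold changes left without a dog were 2.40 to 3.02 for MMP9, 1.69 to 2.70 for CCR1 and 2.57 to 3.28 for ADGRE3. KLRK1-positive dn cells had a median of 3918 to 5157 UMIs per cell over dogs and KLRK1-negative ones 3229 to 3452, and the part of depth in the result was not tested.

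By their receptor β chains, KLRK1-positive dn cells had clone mates of both lineages. In dog 2, 48 such cells shared a clone with CD4 sp cells alone, 19 with CD8A sp cells alone and 62 with both. The counts were 71, 163 and 126 in dog 3 and 92, 9 and 22 in dog 4. No such mate was found for 98 of 227, 134 of 494 and 118 of 241 KLRK1-positive dn cells with a single TRB in dogs 2 to 4. In dog 1 it was 33 of 34. Among cells with mates, 37.2, 19.7 and 74.8% of dogs 2 to 4 had CD4 sp mates alone. For KLRK1-negative dn cells these shares were 71.3, 39.6 and 75.9%. The part of lineage in the KLRK1 split of dn cells was not tested. MMP9 was at 85.9, 37.7 and 16.5 CPM in the dn cells tied to CD4 sp clones of dogs 2 to 4. In the dn cells tied to CD8A sp clones it was at 0, 11.3 and 0 CPM, where dogs 2 and 4 had few cells. ADGRE3 was at 34.8 and 41.2 CPM and CCR1 at 26.1 and 20 CPM in the cells of dog 3 tied to CD4 sp and to CD8A sp clones.

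Other genes of these families were read from the same fit on dn cells. Of 13 chemokine receptors besides CCR1 that were tested, 2 rose and 3 fell (median log2 fold change -0.13). CCR9 rose by 2.30 ± 0.43 (edgeR adjusted p = 0.0189), while CCR4 (-2.63 ± 0.29, 0.00148), CCR7 (-2.18 ± 0.28, 0.00370) and CCR10 (-2.78 ± 0.58, 0.0307) fell. No other adhesion receptor of 4 passed, with ADGRG1 at 1.65 ± 0.56, ADGRE2 at 1.20 ± 0.71 and ADGRE5 at 0.22 ± 0.16, and the median was 0.83. Of 2 other kallikreins tested KLK4 fell, at -2.67 ± 0.52 (edgeR adjusted p = 0.0236), and KLK12 was at 0.21 ± 0.74. Of 7 other metalloproteinases and inhibitors, only ADAM19 passed, at -2.75 ± 0.33 (edgeR adjusted p = 0.00247; median of the list -0.30).

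Among 9 other genes of retinoic acid handling and response, ITGA4, an integrin chain of gut-homing cells, rose by 0.78 ± 0.12 (edgeR adjusted p = 0.00970), RDH11 and STRA6 fell, and 6 did not pass (median -0.06). Of 12 other effector and residency transcription factors 1 rose, TBX21 (1.64 ± 0.37, edgeR adjusted p = 0.0453), and 1 fell, LEF1, a factor of naive cells (-2.40 ± 0.39, 0.0114). The cytotoxic effector genes rose in 3 of 13, namely GZMK (2.11 ± 0.36), PRF1 (2.02 ± 0.44) and CCL5 (3.61 ± 0.82), with a list median of 1.32. Of 9 killer receptors 5 rose, KLRK1 itself included, with KLRD1 at 3.42 ± 0.34 (edgeR adjusted p = 0.000645). The 2 monocyte markers that were tested did not pass, nor did the neutrophil marker S100A8, at -0.05 ± 0.17. No T cell marker of 8 and no B cell marker of 4 passed. Of the platelet markers ITGB3 fell (-4.00 ± 0.55, edgeR adjusted p = 0.00477).

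A second comparison kept to CD4 sp cells without KLRK1 and split them by GZMK, giving 91, 183, 193 and 262 GZMK-positive cells. They belong to the KLRK1-negative side of the contrast that chose the genes and may have held KLRK1 undetected. GZMK was detected more often with KLRK1 in every dog, so this comparison is not independent of KLRK1 either. No gene of the 8 passed edgeR's test, where 0.101% of 10900 genes were called higher and 0.0275% lower. At an unadjusted p under 0.05 there were 2, CCR1 and ZNF683, as were 8.39% of all genes, and DESeq2 called none. CCR1 was at 4.88, 11.4, 6.12 and 2.82 CPM with and 0.876, 1.83, 2.03 and 2.33 CPM without GZMK, higher in every dog as were 7.92% of all genes. The GZMK-positive cells held 19 UMIs of CCR1, 2 of them in dog 1 and 3 in dog 4. The log2 fold change of CCR1 was 1.83 ± 0.50 (edgeR adjusted p = 0.321).

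ZNF683 was at 61.0, 50.7, 103 and 48.8 CPM with and 19.9, 32.4, 54.7 and 50.04 CPM without GZMK, higher in dogs 1 to 3 (0.75 ± 0.33, edgeR adjusted p = 0.578). KLK11 pointed the other way except in dog 2, at 0, 8.87, 9.79 and 0 CPM with and 4.16, 8.19, 15.97 and 14.3 CPM without GZMK. MMP9 was at 0 to 2.45 CPM with and 0.511 to 3.54 CPM without GZMK. The GZMK-positive cells held 15 UMIs of KLK11 and 4 of MMP9 over all dogs. With the dog as a block, 2.69% of all genes were called higher and 1.85% lower, and among the 8 CCR1 (1.73 ± 0.51, edgeR adjusted p = 0.0236) and ZNF683 (0.66 ± 0.14, 0.000131) were higher and KLK11 (-1.25 ± 0.37, 0.0251) lower.

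**Figure D4:**
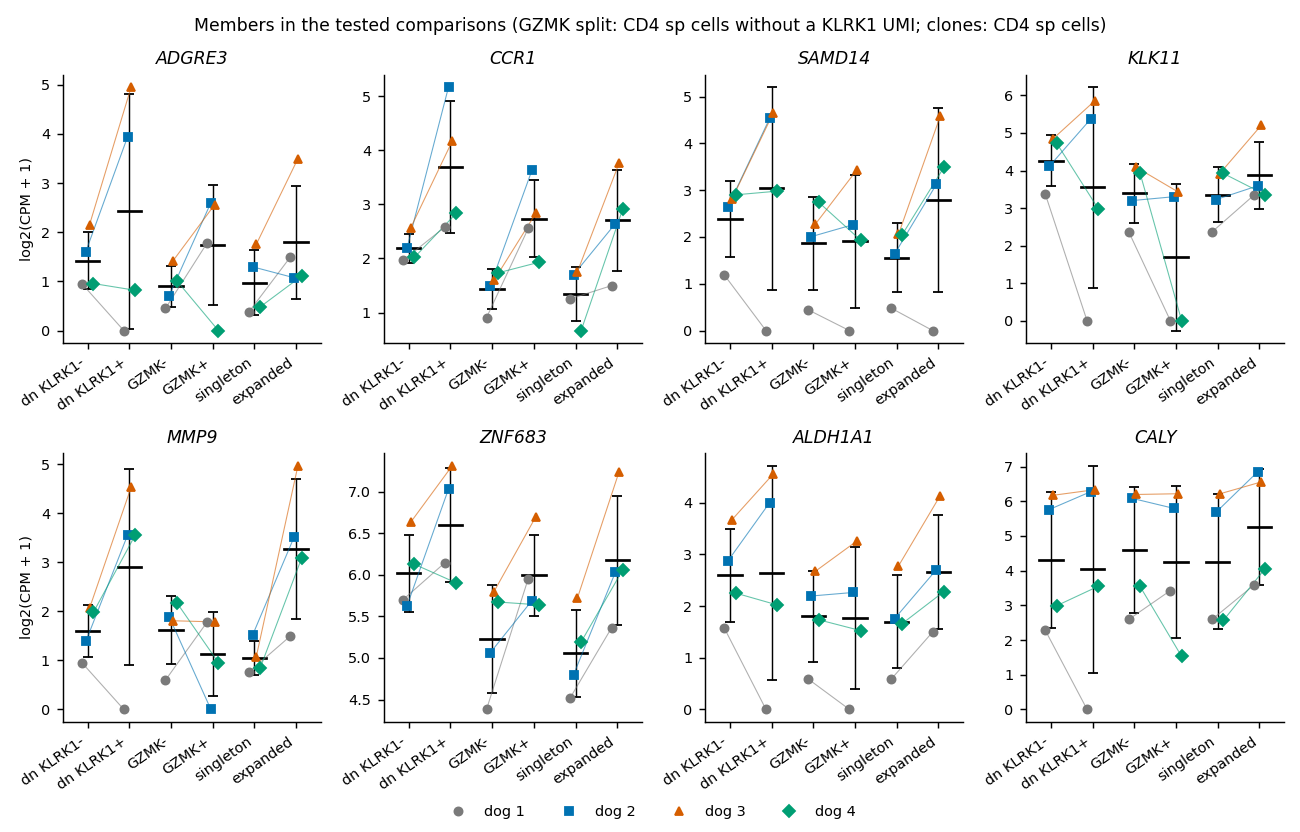
Levels of the 8 genes as log2(CPM + 1) (vertical axes, ranges differ) in the groups of the tested comparisons: dn cells by KLRK1, KLRK1-negative CD4 sp cells by GZMK, and CD4 sp cells of singleton or expanded clones. Each symbol is 1 dog, lines join the same dog, black bars are the mean ± SD of 4 dogs. MMP9 was higher in expanded clones in all 4 dogs, with a single UMI there in dog 1.

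The third comparison asked whether the genes followed clonal expansion. A clone was a group of cells of 1 dog with the same TRB V gene, J gene and nucleotide junction, in cells with a single TRB chain, and was called expanded with at least 2 cells. There were 132, 770, 477 and 1189 CD4 sp cells in expanded clones and 2592, 1816, 1572 and 1256 in singletons. KLRK1 was detected in 1.52, 24.9, 45.9 and 18.8% of the former and 0.656, 4.35, 5.66 and 3.42% of the latter, so this comparison is not independent of KLRK1. By edgeR MMP9, CCR1 and SAMD14 were higher in expanded clones, 3 of 8 where 2.61% of 10726 genes were called higher. The median log2 fold change was 1.51 over the 8 genes and -0.02 over all.

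MMP9 was at 1.82, 10.5, 30.5 and 7.53 CPM in expanded clones and 0.693, 1.85, 1.11 and 0.787 CPM in singletons. It was higher in every dog, as were CCR1, ZNF683, ALDH1A1 and CALY and 18.1% of all genes, and its log2 fold change was 3.56 ± 0.59 (SE, edgeR adjusted p = 0.0124). The expanded cells of dog 1 held 547881 UMIs, so its 1.82 CPM for MMP9, CCR1 and ALDH1A1 was a single UMI each. CCR1 was at 1.82, 5.25, 12.6 and 6.56 CPM against 1.38, 2.25, 2.37 and 0.590 CPM (2.04 ± 0.45, edgeR adjusted p = 0.0309). SAMD14 was at 0, 7.73, 22.9 and 10.2 CPM against 0.396, 2.12, 3.16 and 3.15 CPM, higher in dogs 2 to 4 (2.45 ± 0.62, edgeR adjusted p = 0.0462).

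ZNF683 was at 40.2, 64.4, 150 and 65.8 CPM in expanded clones and 21.9, 26.9, 51.7 and 35.6 CPM in singletons, and missed the threshold (1.29 ± 0.35, edgeR adjusted p = 0.0583). ALDH1A1 (1.45 ± 0.67), ADGRE3 (1.56 ± 0.85), CALY (0.92 ± 0.82) and KLK11 (0.71 ± 0.49) did not pass either. With the dog as a block 7.63% of all genes were called higher, and 6 of the 8 passed, ZNF683 (1.19 ± 0.11, edgeR adjusted p = 2.2e-06), ALDH1A1 (1.26 ± 0.27, 0.00481) and CALY (0.87 ± 0.14, 0.000477) being added. S100A8 was also higher in expanded clones (0.71 ± 0.18, edgeR adjusted p = 0.0439), while LYZ, the monocyte marker tested, had no UMI in expanded clones. Their part in the result was not tested.

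In CD4 sp cells without a KLRK1 UMI, 2.37% of 10625 genes were called higher in expanded clones. Clone size was counted over all kept cells, so these cells could be clone mates of KLRK1-positive ones and may have held KLRK1 undetected. In the largest CD4 sp clone of dog 3, KLRK1 was detected in 34 of 56 cells. This subset is therefore not independent of KLRK1 either. MMP9 was at 1.85, 6.45, 8.24 and 6.60 CPM in the expanded and 0.698, 1.83, 1.02 and 0.819 CPM in the singleton cells, higher in every dog (2.45 log2, edgeR adjusted p = 0.0120). The value of dog 1 was a single UMI in 540835. ZNF683 was at 40.7, 60.7, 118 and 66.5 CPM against 20.7, 23.9, 46.7 and 35.03 CPM, also higher in every dog without a KLRK1 UMI (1.16 log2, edgeR adjusted p = 0.0448). CCR1 (1.26 log2, 0.134) and SAMD14 (2.14 log2, 0.0725) did not pass there. Leaving out a dog removed calls from the comparison of all CD4 sp cells: none of the 8 passed without dog 2 (edgeR adjusted p = 0.125 for MMP9, 0.195 for CCR1 and 0.246 for SAMD14; 4 genes unadjusted) or without dog 3 (0.0637, 0.126 and 0.177; 5 genes unadjusted), and without dog 4 only MMP9 did (0.0199; CCR1 0.0702, SAMD14 0.0876). At an unadjusted p under 0.05 were 12.9% of all genes without dog 2 and 17.0% without dog 3. These fits had no block for the dog. SAMD14 also lost its call by DESeq2 (adjusted p = 0.153) and CCR1 with clones defined by TRA and TRB (edgeR adjusted p = 0.0539). With clones of at most 9 cells, chosen after seeing the data, only MMP9 passed (2.88 ± 0.56, edgeR adjusted p = 0.0315; CCR1 0.0825, SAMD14 0.176).

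The effect of expansion was also measured in CD8A sp cells and set against that in CD4 sp cells in 1 model. No gene of the 8 differed between the lineages by edgeR (0 at an unadjusted p under 0.05; DESeq2 called 0), where 0% of 11215 genes were called higher and 0.00892% lower in the CD4 sp effect. The differences were all positive, from 0.44 ± 0.45 for ZNF683 to 1.79 ± 1.25 for SAMD14 and 1.89 ± 1.30 for MMP9 on the log2 scale, and the standard error exceeded the difference for ADGRE3, KLK11, ZNF683, ALDH1A1 and CALY. The share of all genes with a positive difference was not counted. KLRK1 was detected in 75.1, 71.7, 72.1 and 61.3% of expanded and 30.9, 45.4, 45.5 and 46.6% of singleton CD8A sp cells. The signs are therefore not independent of the choice of genes and are description only. With the dog as a block 0.276% of all genes were called higher and 0.178% lower, and still none of the 8 (edgeR adjusted p = 0.391 to 0.846). ZNF683 was at 93.4, 98.0, 82.8 and 62.8 CPM in expanded and 43.4, 60.6, 42.1 and 30.3 CPM in singleton CD8A sp cells. MMP9 was at 1.56, 1.53, 11.2 and 1.59 CPM against 2.71, 1.01, 1.45 and 0.74 CPM.

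Single clones differed in which of the 8 genes were detected in them. The 2 largest CD4 sp clones of dogs 2, 3 and 4 were chosen by size alone; dog 1 had no clone above 4 CD4 sp cells. The TRB junctions of 4 of them are printed to identify them, 5′ to 3′, with the first and last codon in capitals.

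Dog 2 clone 1: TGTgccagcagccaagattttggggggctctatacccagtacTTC
Dog 3 clone 1: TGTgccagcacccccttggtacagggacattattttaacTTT
Dog 3 clone 2: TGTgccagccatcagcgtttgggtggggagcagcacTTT
Dog 4 clone 1: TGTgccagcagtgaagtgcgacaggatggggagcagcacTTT

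Dog 3 clone 2 (TRBV16, TRBJ2-1) had 19 CD4 sp cells, 15 of them with KLRK1, and held UMIs of all 8 genes. Its counts were 5 UMIs of ADGRE3, 2 of CCR1, 6 of SAMD14, 9 of KLK11, 7 of MMP9, 17 of ZNF683, 8 of ALDH1A1 and 21 of CALY. Dog 3 clone 1 (TRBV15, TRBJ1-2), with 56 CD4 sp cells and KLRK1 in 34, had 22 UMIs of MMP9 in 11 cells, 26 of ZNF683 and 44 of CALY, but 2 of SAMD14 and none of ADGRE3, CCR1, KLK11 or ALDH1A1. Both clones came from the same library, and for KLK11 the exact Poisson 95% intervals, 35.9 to 149 CPM in clone 2 and 0 to 13.0 CPM in clone 1, did not overlap. For MMP9 they did, at 24.5 to 126 and 48.7 to 118 CPM.

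Dog 2 clone 1 (TRBV3-2, TRBJ2-5), of 40 CD4 sp cells, carried 50 UMIs of CALY in 24 cells, at 267 CPM (198 to 352), and 6 each of MMP9 and ZNF683. Dog 2 clone 2 (TRBV7, TRBJ1-4), of 21 cells, had 10 UMIs of MMP9 in 7 cells at 93.9 CPM (45.01 to 173), and none of ADGRE3, CCR1, SAMD14, KLK11 or ALDH1A1. In dog 4, clone 1 (TRBV16, TRBJ2-1; 71 cells, KLRK1 in 6) had 5 UMIs of MMP9, 24 of ZNF683 and 8 of CALY. Clone 2 of dog 4 (TRBV16, TRBJ1-4; 54 cells, KLRK1 in 23) had 5 of SAMD14, 4 of MMP9, 8 of ZNF683 and none of CALY. CCR9 was detected in 51 and 38 cells of these 2 clones of dog 4, and in 33 and 15 of those of dog 3. MMP9 was thus present in all 6 clones and ADGRE3 in 1.

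**Figure D5:**
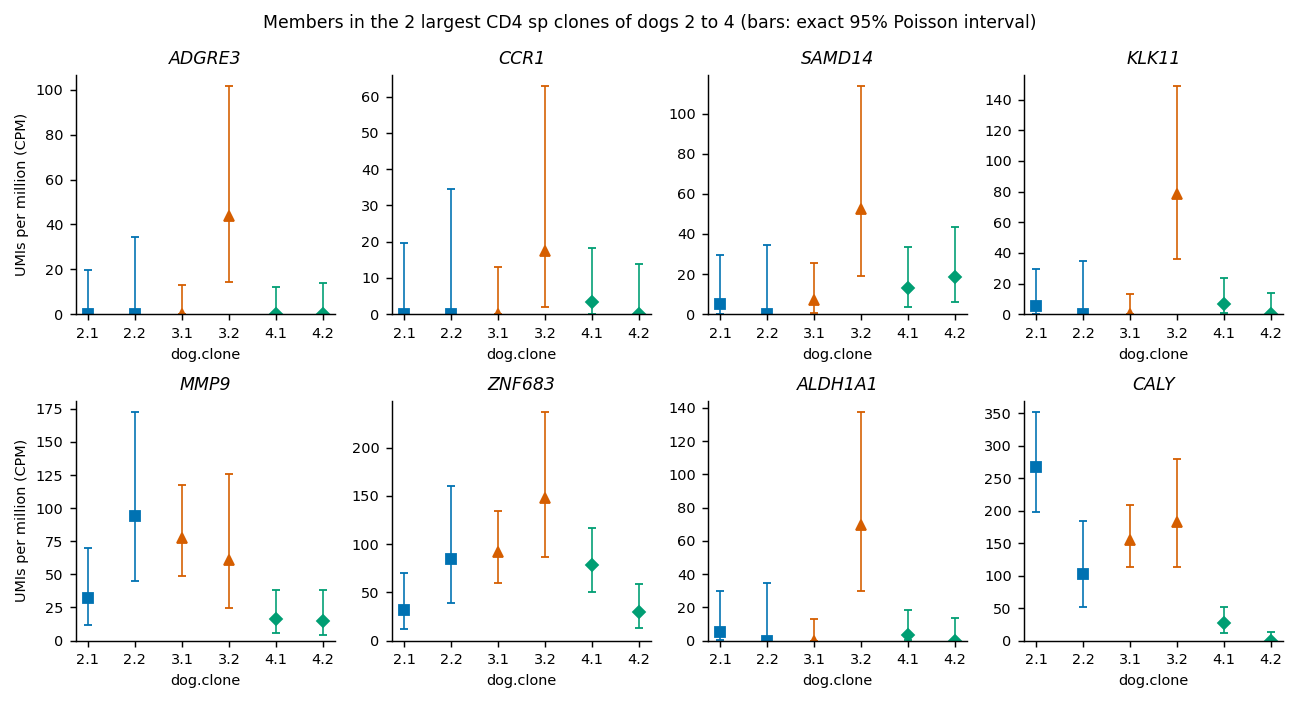
CPM of the 8 genes (panels) in the 2 largest CD4 sp clones of dogs 2, 3 and 4 (horizontal axis, dog.clone); bars are exact 95% Poisson intervals of the UMI count. Clone 3.2 held all 8 genes, while MMP9, ZNF683 and CALY accounted for nearly all UMIs of clone 3.1.

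Over all 46 clones with at least 10 CD4 sp cells, which held 8.97% of the CD4 sp cells with a single TRB, the share of UMIs found in such clones was 47.8% for MMP9, 37.2% for SAMD14 and 28.2% for CCR1. It was 22.8% for ALDH1A1, 20% for ADGRE3, 16.1% for CALY, 15.2% for ZNF683 and 12.5% for KLK11. MMP9 was found in 22 of the clones, with 22 of its 85 UMIs in 1 of them, and ADGRE3 in 8. The 121 MMP9-positive cells with a single TRB belonged to 77 clones, the largest with 11 cells.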

How the data were processed

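Peripheral blood TCRαβ+ T cells of 4 Beagles were measured by 5′ single-cell RNA sequencing with paired receptor sequencing. The authors deposited UMI counts per gene and cell, made with Cell Ranger 5.0.1, and receptor contigs per cell; the counts were not normalized. The gene list deposited for dog 1 had 27980 lines and did not match its matrix, so the list of dog 2 was used for all 4 matrices. Cells with 500 to 20000 UMIs and at most 10% mitochondrial UMIs were kept, and no doublet caller was run. CPM is a gene's UMIs per 1000000 UMIs of the summed cells. UMI counts were summed per dog and set of cells, and genes with at least 20 UMIs over the sums were tested with edgeR 4.0.16 (quasi-likelihood test, TMM, Benjamini-Hochberg adjustment, threshold 0.05) in R 4.3.3; DESeq2 1.42.0 was an alternative. Dogs were the replicates, so p-values measure the spread between dogs. Both groups of a comparison came from the same animals, and the 2 sums of a dog deviated together (r from 0.223 to 0.55 between deviations from the group means); the fit with the dog as a replicate block is given where it changed a call. The code was tested on simulated data. Other gene families were taken from lists, with at most 4 genes per list named by the lowest adjusted p in dn cells; the T cell and myeloid genes of the clone comparison and the marker checks were named beside these. Genes resembling each of the 8 were the 3 with the highest correlation among genes with a mean of at least 5 CPM. The 8 genes and all lists were chosen with earlier results of these data known. Levels were summarised with Python 3.11.15. Some marker genes and receptor junctions are not reported here. Set means without each dog were an alternative chosen after seeing the data.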

Additional observations from a re-analysis of the deposited data

Results flagged for a closer look

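In 4 of 80 groups of 4 dogs, 1 dog stood apart from the others by Dixon's 95% criterion, and chance gives about 1 in 20. Each time it was dog 3. ADGRE3 was at 10.3 CPM in its expanded CD4 sp clones, against 1.1 to 1.82 CPM in the other dogs. KLK11 was at 35.9 CPM in the same cells, against 9.13 to 11.1 CPM, and at 29.3 CPM in those without KLRK1, against 8.72 to 10 CPM. MMP9 was at 11.2 CPM in its expanded CD8A sp clones, against 1.53 to 1.59 CPM.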

How the results depend on the processing

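With the replicate block (each dog paired with itself), the number of genes called was 1046 instead of 255 for KLRK1 in dn cells, 495 instead of 14 for GZMK in KLRK1-negative CD4 sp cells, 1607 instead of 533 for expanded clones and 51 instead of 1 for the difference between CD4 sp and CD8A sp cells. Without the filter on genes the numbers were 389 for KLRK1, 41 for GZMK and 2 for the difference. DESeq2's Wald test called 72 for GZMK and 15 for the difference, and clones defined by TRA and TRB gave 2 for the latter. With clones of at most 9 cells, an alternative chosen after seeing the data, 211 genes were called for expansion and 0 by edgeR for the difference (476 at an unadjusted p under 0.05). Leaving out 1 dog gave 21 to 317 for KLRK1 (24 without dog 2, 21 without dog 3), 1 to 24 for GZMK (1 without dog 2, 2 without dog 3), 1 to 508 for expansion (1 without dog 2, 36 without dog 3, 344 without dog 4) and 0 to 1 for the difference. Under GZMK the log2 fold change of SAMD14 ran from -0.18 (without dog 3) to 1.19, and that of CALY from -0.31 to 0.11 (0.03 without dog 2, 0.11 without dog 4), neither of them called. The fits with a dog left out had no block for the dog. The causes were not tested. Leaving out cells with a myeloid marker other than S100A8, also chosen after seeing the data, kept 3, 0 and 3 of the 8 genes called for KLRK1, GZMK and expansion. The planned removal of all cells with a myeloid marker, S100A8 included, left 45 of 1165 KLRK1-positive CD4 sp cells, where the mean log2 ratio was -0.3 for MMP9, -0.88 for SAMD14, -1.21 for ALDH1A1, -2.65 for CALY, 0.81 for CCR1 and 0.44 for ZNF683. These ratios rested on the few UMIs of the cells left, so their signs cannot be read. The mean ratio of CALY was also negative, at -0.51, after thinning and with at least 2 KLRK1 UMIs. In both settings the KLRK1-positive cells of dog 1 held no CALY UMI. The mean ratio of KLK11 turned to 0.31 without dog 1. A filter on CD8B in dn cells was not run, because the gene list used does not name CD8B. The few UMIs of dog 1 in KLRK1-positive cells limit its values to steps of 7.76 CPM in CD4 sp and 4.99 CPM in dn cells.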
